A study of Mus musculus with 6 samples.

Results

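The 10 genes described here carry long-chain fatty acids from lipoproteins in the blood into heart cells and ready them for use. They were chosen by name, as lipase, transport and fatty acid binding genes, out of 35498 genes to which the transcripts of the series were assigned, and all 10 passed the filter on low counts. The lipase system holds Lpl, Gpihbp1 and Angptl4, the lipoprotein receptor is Vldlr, the membrane transporters are Cd36 and Slc27a1, the binding proteins are Fabp3, Fabp4 and Fabp5, and the activating enzyme is Acsl1.

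The hearts came from 3 RUNX1 FB-KO and 3 CTL mice of the C57BL/6J strain, aged 8 to 10 weeks, 7 days after the left anterior descending artery was tied off to cause an infarct. RUNX1 FB-KO mice had the genotype Postn CreER+/-; Runx1 fl, and CTL mice had Postn CreER+/- with wild-type Runx1, so the inducible recombinase was present in both groups. All mice were fed tamoxifen from the operation until collection, and poly-A RNA was read from ventricle below the ligature. The recombinase follows the Postn promoter, which is active in activated fibroblasts, so the design does not target the other cells of the tissue. RUNX1 FB-KO replicate 1 was male and replicates 2 and 3 were female, while CTL replicate 1 was female and replicates 2 and 3 were male.

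In the heart, fatty acids are the main fuel of the muscle cells. Lipoprotein lipase, made by the muscle cells, is carried by GPIHBP1 across the capillary wall, where it frees fatty acids from triglyceride-rich lipoproteins. CD36 and the fatty acid transport proteins take fatty acids across membranes, small binding proteins hold them in the cytosol, and acyl-CoA synthetases trap them as acyl-CoA. Several steps have forms typical of a cell type. FABP3 is the heart muscle form, FABP4 is known from adipocytes, capillary endothelium and macrophages, and FABP5 is known from macrophages, endothelium and epidermis.

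Total depth was 16598561 to 19987279 estimated reads per library. Runx1, the targeted gene, was at 17.5, 10.9 and 67.4 CPM (counts scaled to the TMM-adjusted library size) in RUNX1 FB-KO replicates 1, 2 and 3, against 96.4, 86.9 and 85.5 CPM in CTL replicates 1, 2 and 3. All RUNX1 FB-KO libraries were below all CTL libraries, with replicate 3 the nearest to them (log2 fold change -1.48 ± 0.63 SE, adjusted p = 0.154, edgeR; -2.61 without replicate 3, adjusted p = 0.000142). Which part of Runx1 is removed is not given in the sources used here. Across genes, the log2 CPM of RUNX1 FB-KO replicate 3 had a correlation of 0.956 to 0.969 with the CTL libraries and of 0.913 to 0.924 with the other RUNX1 FB-KO libraries. Fold changes of the genes named by role, and the ratios that did not overlap, are therefore given with and without that library. Because it was picked from these data as the nearest to CTL, leaving it out tends to widen differences and lower p by that choice. Values without it are a description and not a separate test. Of all genes tested, 20.2% were higher in all RUNX1 FB-KO libraries, and of 12 cardiomyocyte markers, 12 were. Their summed level was 82839, 103486 and 26508 CPM in RUNX1 FB-KO replicates 1 to 3, against 12353, 13795 and 10637 CPM in CTL replicates 1 to 3. Mitochondrially encoded transcripts took 24.5%, 19.6% and 10.4% of reads in RUNX1 FB-KO hearts, against 5.69%, 7.11% and 5.36% in CTL hearts. The 9 fibroblast markers, led by Col3a1, summed to 10127, 9010 and 28571 CPM in RUNX1 FB-KO hearts, against 33585, 36006 and 32690 CPM in CTL hearts. Of the 9, 4 were lower in all RUNX1 FB-KO libraries (Col1a1, Col1a2, Col3a1 and Pdgfra), where 18.8% of all genes tested were. Postn, Dcn, Lum, Tcf21 and Ddr2 overlapped between the groups, so the sum mostly follows its abundant collagen genes. The part of these shifts in the results below was not tested, beyond the ratios and the covariate fit given. Summed endothelial markers were at 1236 to 1318 CPM in RUNX1 FB-KO and 1152 to 1246 CPM in CTL, with Cdh5 the highest of them. In whole tissue, fewer cells of a type and less RNA per cell cannot be told apart.

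The parts of the sequence on which the transcript results turn are shown first. Acsl1 (ENSMUSG00000018796, chr8:46471037-46536051, + strand, GRCm38) is read from alternative first exons. The transcript Acsl1-201 begins at the outer start and Acsl1-203 begins 19929 bases downstream, and they share 19 of their 21 exons and the same coding sequence of 2097 bases. The 250 bases before each start follow, from RefSeq (GRCm38.p6), 5′ to 3′, at chr8:46470787-46471036 and chr8:46490716-46490965 on the + strand, with each CG dinucleotide in capitals.
Acsl1-201 upstream: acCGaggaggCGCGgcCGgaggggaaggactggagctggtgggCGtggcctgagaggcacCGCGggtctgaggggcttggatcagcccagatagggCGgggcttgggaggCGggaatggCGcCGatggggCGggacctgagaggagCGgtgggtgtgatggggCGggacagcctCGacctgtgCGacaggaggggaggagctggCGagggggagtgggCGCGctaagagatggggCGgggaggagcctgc
Acsl1-203 upstream: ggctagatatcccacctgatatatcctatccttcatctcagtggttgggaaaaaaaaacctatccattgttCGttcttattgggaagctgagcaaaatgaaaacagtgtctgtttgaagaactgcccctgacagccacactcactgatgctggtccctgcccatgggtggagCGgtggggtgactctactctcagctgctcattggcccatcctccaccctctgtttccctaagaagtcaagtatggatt
The window before Acsl1-201 held 20 CG dinucleotides and 72% G or C, and the window before Acsl1-203 held 2 and 48.4%. Vldlr (ENSMUSG00000024924, chr19:27216484-27254231, + strand) has main transcripts that differ in their first and last exons and in an optional exon. Exon 16 of the 19 exons of Vldlr-207, at chr19:27246593-27246676 on the + strand, is 84 bases long, adds 28 codons without shifting the frame, and is left out of Vldlr-208. The spliced transcripts around it are given below from GENCODE M21 (GRCm38), with 20 bases on each side and the exon in capitals.
Vldlr-207: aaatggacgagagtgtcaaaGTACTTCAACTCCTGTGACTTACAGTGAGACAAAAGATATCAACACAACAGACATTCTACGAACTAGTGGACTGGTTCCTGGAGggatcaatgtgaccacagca
Vldlr-208: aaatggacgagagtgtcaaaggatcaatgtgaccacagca

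Of the 10 genes, 5 were higher in every RUNX1 FB-KO library than in every CTL library, and none was lower in every library. These 5 were Lpl, Cd36, Fabp3, Acsl1 and Vldlr, with fold changes of 3.66 to 6.48, and each has a known role in heart muscle cells. Gpihbp1, Fabp4, Fabp5, Slc27a1 and Angptl4 overlapped between the groups, although Slc27a1 was also set among the muscle forms. Groups that did not overlap were common across the series: 39% of the 14237 genes tested did not overlap, 20.2% with RUNX1 FB-KO above and 18.8% with it below.

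At an adjusted p under 0.05 (edgeR quasi-likelihood test, Benjamini-Hochberg over all genes tested), 0 of the 10 genes passed, and the background was 0 in either direction and 0 for genes higher in RUNX1 FB-KO. At an unadjusted p under 0.05, 5 of the 10 genes were higher and 0 lower, where 32.4% of all genes tested passed, 19.3% higher and 13.1% lower. At an adjusted p under 0.1, the same 5 genes passed, against 16.2% of all genes, 12.5% higher and 3.74% lower. With DESeq2 at 0.05 these 5 passed again, against 21.2% of 14227 genes, 15.4% higher and 5.85% lower, while with limma-voom 0 passed. With RUNX1 FB-KO replicate 3 left out, 8 of the 10 genes passed at 0.05 as higher and 1 as lower, where 47.6% of 14609 genes passed, 25.1% higher and 22.5% lower. With any other single library left out, 0 of the 10 genes passed. Directions below are relative to a median log2 fold change over all genes of -0.06, which moved to -0.52 when libraries were scaled by their size alone.

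**Figure D1:**
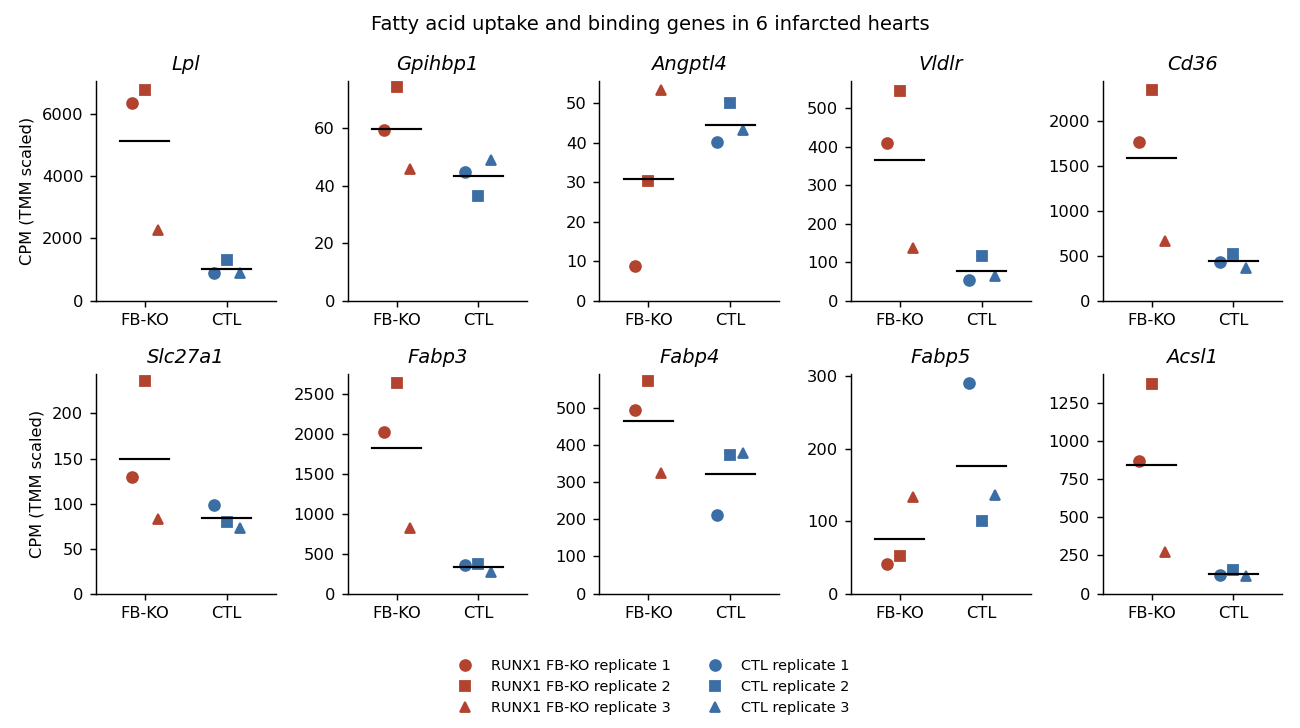
Level of each of the 10 genes in CPM after TMM scaling (vertical axes, each from 0), with RUNX1 FB-KO left of CTL, a point for each library and a line at the group mean (n = 3 each). Lpl, Cd36, Fabp3, Acsl1 and Vldlr separate the groups, and RUNX1 FB-KO replicate 3 (triangle) is the lowest of its group for each of them.

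In the lipase system, the enzyme was higher in every RUNX1 FB-KO heart than in any CTL heart, while its vascular anchor and its inhibitor overlapped between the groups. Lpl (ENSMUSG00000015568, chr8:68880491-68907448, + strand), lipoprotein lipase, was at 6350, 6770 and 2283 CPM in RUNX1 FB-KO replicates 1 to 3, against 889, 1307 and 881 CPM in CTL replicates 1 to 3. Every RUNX1 FB-KO library was above every CTL library, and replicate 3 lay much nearer to CTL than the other 2. The log2 fold change was 2.32 ± 0.51 (SE), a 5.01-fold difference, with an adjusted p of 0.068 (edgeR), and without replicate 3 it was 2.72 with an adjusted p of 0.000162.

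Gpihbp1 (ENSMUSG00000022579, chr15:75596628-75599481, + strand), the capillary protein that binds the lipase, was at 59.3, 74.6 and 46.0 CPM in RUNX1 FB-KO hearts, against 44.7, 36.4 and 48.9 CPM in CTL hearts. The groups overlapped, since RUNX1 FB-KO replicate 3 was below CTL replicate 3. Its log2 fold change was 0.47 ± 0.21 (SE), with an adjusted p of 0.174 (edgeR). It was 0.67 without replicate 3, with an adjusted p of 0.015, but -0.04 under scaling by library size alone. A further 4 of 6 capillary markers, Kdr, Car4, Rgcc and Tcf15, were higher in all RUNX1 FB-KO libraries, where 20.2% of all genes tested were. Aplnr, lower on average in RUNX1 FB-KO, and Meox2 overlapped between the groups. The summed capillary list was at 343, 325 and 237 CPM in RUNX1 FB-KO and 163, 169 and 137 CPM in CTL. Of 12 endothelial markers, 1 was higher in all RUNX1 FB-KO libraries, Kdr, which is on both lists. A further 3, Pecam1, Egfl7 and Cldn5, were lower in all RUNX1 FB-KO libraries, where 18.8% of all genes tested were.

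Angptl4 (ENSMUSG00000002289, chr17:33773750-33781830, - strand), a secreted inhibitor of the lipase, was at 8.64, 30.4 and 53.4 CPM in RUNX1 FB-KO hearts, against 40.3, 50.2 and 43.3 CPM in CTL hearts. RUNX1 FB-KO replicate 1 was the lowest of the 6 libraries and replicate 3 the highest, so the groups overlapped. The log2 fold change was -0.53 ± 0.55 (SE), with an adjusted p of 0.509 (edgeR), and it was -1.16 without replicate 3 (adjusted p = 0.070) and -0.08 without replicate 1 (adjusted p = 0.868). On the log2 CPM scale, the male RUNX1 FB-KO heart differed from the mean of the 2 male CTL hearts by -2.43, while the 2 female RUNX1 FB-KO hearts differed from the female CTL heart by -0.41 and 0.41. These differences within a sex were not tested.

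Vldlr, the receptor that binds triglyceride-rich lipoproteins, was at 410, 547 and 137 CPM in RUNX1 FB-KO hearts, against 53.0, 115 and 63.0 CPM in CTL hearts. All RUNX1 FB-KO libraries were above all CTL libraries, with replicate 3 only a little above CTL replicate 2. The log2 fold change was 2.24 ± 0.55 (SE), with an adjusted p of 0.071 (edgeR), and 2.68 without replicate 3 (adjusted p = 0.00066).

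Of the membrane transporters, Cd36 did not overlap between the groups and Slc27a1 did, and the difference between them was not tested. Cd36 (ENSMUSG00000002944, chr5:17781690-17888801, - strand), the fatty acid translocase of muscle, capillaries and macrophages, was at 1771, 2351 and 664 CPM in RUNX1 FB-KO hearts, against 425, 521 and 361 CPM in CTL hearts. The groups did not overlap, and the log2 fold change was 1.87 ± 0.48 (SE), with an adjusted p of 0.075 (edgeR). It was 2.28 without replicate 3, with an adjusted p of 0.00023. Slc27a1 (ENSMUSG00000031808, chr8:71568882-71587302, + strand), fatty acid transport protein 1, was at 129, 236 and 83.2 CPM in RUNX1 FB-KO hearts, against 98.5, 79.8 and 72.3 CPM in CTL hearts. CTL replicate 1 was above RUNX1 FB-KO replicate 3, so the groups overlapped, and RUNX1 FB-KO replicate 2 stood highest. Its log2 fold change was 0.84 ± 0.37 (SE), with an adjusted p of 0.168 (edgeR). Without RUNX1 FB-KO replicate 3 it was 1.17 (adjusted p = 0.0083), and without RUNX1 FB-KO replicate 2 it was 0.35 (adjusted p = 0.441).

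The 3 fatty acid binding proteins did not share a direction. Fabp3 (ENSMUSG00000028773, chr4:130308595-130315463, + strand), the heart muscle form, was at 2027, 2635 and 827 CPM in RUNX1 FB-KO hearts, against 352, 368 and 273 CPM in CTL hearts. The groups did not overlap, and the 3 CTL hearts were close to each other. The log2 fold change was 2.47 ± 0.46 (SE), with an adjusted p of 0.068 (edgeR), and 2.86 without replicate 3 (adjusted p = 9.1e-05). A processed pseudogene copy, Fabp3-ps1, was assigned 14.1 to 34.9 reads in RUNX1 FB-KO libraries and 7.5 to 11.1 reads in CTL libraries, which is a small number beside those of Fabp3 itself.

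Fabp4 (ENSMUSG00000062515, chr3:10204088-10208576, - strand), the form of adipocytes and capillaries, was at 496, 574 and 326 CPM in RUNX1 FB-KO hearts, against 211, 373 and 380 CPM in CTL hearts. RUNX1 FB-KO replicate 3 was below CTL replicates 2 and 3, so the groups overlapped. The log2 fold change was 0.53 ± 0.33 (SE), with an adjusted p of 0.274 (edgeR), and 0.78 without replicate 3 (adjusted p = 0.045). Adipocyte markers varied widely between hearts. The summed adipocyte list was at 3.67, 117 and 39.4 CPM in RUNX1 FB-KO replicates 1 to 3, against 0.40, 316 and 285 CPM in CTL replicates 1 to 3. Adipoq, Plin1, Cidec and Retn had 0 reads in CTL replicate 1, the CTL heart with the least Fabp4. Lep had 0 reads there and in CTL replicate 3. RUNX1 FB-KO replicate 1, with an adipocyte sum of 3.67 CPM, had more Fabp4 than any CTL heart, at 496 CPM. The part of fat tissue in the Fabp4 values was not tested.

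Fabp5 (ENSMUSG00000027533, chr3:10012548-10016607, + strand), a form of macrophages and endothelium, was at 40.3, 51.2 and 133 CPM in RUNX1 FB-KO hearts, against 291, 100 and 136 CPM in CTL hearts. RUNX1 FB-KO replicates 1 and 2 were the lowest of the 6 libraries, replicate 3 lay among the CTL hearts, and CTL replicate 1 was the highest. The log2 fold change was -1.23 ± 0.56 (SE), with an adjusted p of 0.175 (edgeR). It was -1.90 without RUNX1 FB-KO replicate 3 (adjusted p = 0.011), and -0.66 without CTL replicate 1 (adjusted p = 0.454). The summed list of 12 macrophage markers had the same layout, at 1439, 1367 and 3462 CPM in RUNX1 FB-KO hearts and 5334, 3405 and 3678 CPM in CTL hearts. Lyz2 was a large part of that sum, at 658, 662 and 1741 CPM in RUNX1 FB-KO hearts and 2963, 1634 and 1779 CPM in CTL hearts. Of the 12 markers, 6 were lower in all RUNX1 FB-KO libraries, where 18.8% of all genes tested were. For those 6, unlike Fabp5, replicate 3 lay below every CTL heart. None of the 12 was higher in all RUNX1 FB-KO libraries, where 20.2% of all genes tested were. The ratio of Fabp5 to the 12 markers is among those given below.

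Acsl1, the main long-chain acyl-CoA synthetase of the heart, was at 870, 1377 and 275 CPM in RUNX1 FB-KO hearts, against 124, 151 and 114 CPM in CTL hearts. The groups did not overlap, and the log2 fold change of 2.70 ± 0.56 (SE), or 6.48-fold, was the largest of the 10 genes (adjusted p = 0.068, edgeR). Without replicate 3 it was 3.16, with an adjusted p of 0.000102.

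On the TPM scale, which allows for transcript length, Fabp3 was the most abundant of the 10 genes in both groups. TPM were summed over each gene's transcripts as the authors deposited them and carry no TMM scaling, so abundant mitochondrial transcripts lower every other gene's value. In RUNX1 FB-KO hearts the mean levels ran from Fabp3 at 2889 ± 886 TPM (SD, n = 3) through Lpl at 1198 ± 314, Fabp4 at 667 ± 57 and Cd36 at 652 ± 229 to Acsl1 at 209 ± 101 TPM. Below these came Fabp5 at 113 ± 113, Gpihbp1 at 103 ± 15, Slc27a1 at 70.0 ± 23.2, Vldlr at 55.2 ± 22.8 and Angptl4 at 19.01 ± 19.3 TPM. In this group Fabp3 was separated from Lpl, and Lpl from Fabp4. Cd36 overlapped Fabp4, and at 872 TPM in replicate 2 it was also above Lpl at 836 TPM in replicate 3. Fabp4 and Cd36 were separated from Acsl1, while from Acsl1 down each gene overlapped the next.

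In CTL hearts the mean levels ran from Fabp3 at 935 ± 124 TPM (SD, n = 3) through Fabp4 at 776 ± 244, Lpl at 430 ± 94, Fabp5 at 375 ± 213 and Cd36 at 313 ± 54 to Gpihbp1 at 125 ± 18 TPM. Slc27a1 at 62.5 ± 3.2, Acsl1 at 60.0 ± 8.6, Angptl4 at 37.8 ± 3.4 and Vldlr at 25.3 ± 9.6 TPM followed. The first 5 genes overlapped their neighbours, and gaps lay below Cd36, below Gpihbp1 and below Acsl1. Acsl1 stood in place 5 in RUNX1 FB-KO hearts and in place 8 in CTL hearts. Fabp4 and Gpihbp1 averaged less in RUNX1 FB-KO than in CTL on this scale, the opposite of their CPM means.

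The make-up of the binding protein transcripts does not depend on how libraries are scaled. Fabp3 made up 81.6%, 83.3% and 68.2% of the summed TPM of Fabp3, Fabp4, Fabp5 and Fabp7 in RUNX1 FB-KO replicates 1 to 3, against 46.9%, 48.1% and 38.9% in CTL replicates 1 to 3. Fabp4 made up 17.2%, 15.5% and 23.4% in RUNX1 FB-KO and 23.5%, 41.8% and 46.2% in CTL. Fabp5 made up 1.19%, 1.19% and 8.25% in RUNX1 FB-KO and 29.3%, 10.0% and 14.5% in CTL. The muscle form was thus the greater part of the pool in every RUNX1 FB-KO heart, and in no CTL heart did it reach the share of the lowest RUNX1 FB-KO heart.

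**Figure D2:**
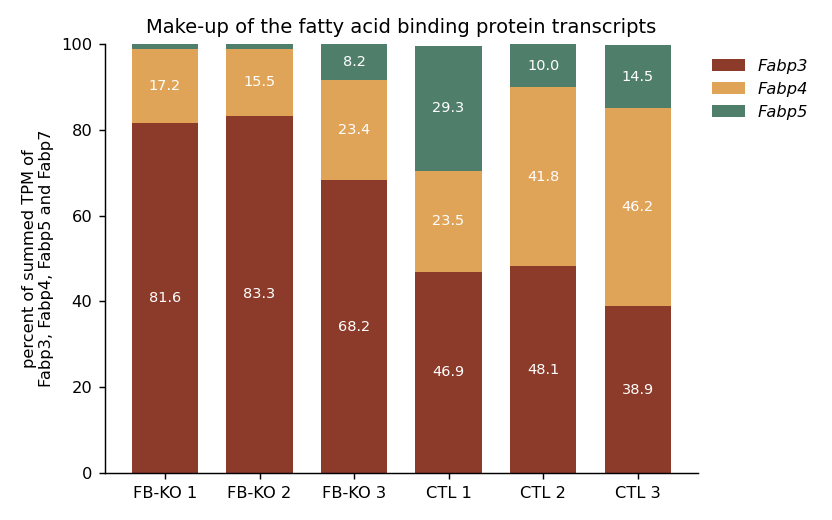
Share in percent of each binding protein gene in the summed TPM of Fabp3, Fabp4, Fabp5 and Fabp7 (vertical axis), a bar for each library with the 3 RUNX1 FB-KO hearts left of the 3 CTL hearts. Fabp3 takes 68.2% to 83.3% in RUNX1 FB-KO and 38.9% to 48.1% in CTL. Fabp7 is too small to be seen, and its part at the top of each bar is not drawn.

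The acyl-CoA synthetase transcripts were also made up differently in the groups. Acsl1 held 91.2%, 95.3% and 73.3% of the summed TPM of Acsl1, Acsl3, Acsl4, Acsl5 and Acsl6 in RUNX1 FB-KO hearts, against 50.9%, 57.9% and 51.5% in CTL hearts. In the Slc27 family, Slc27a1 held 87.5%, 91.7% and 77.8% in RUNX1 FB-KO hearts and 72.9%, 77.4% and 74.1% in CTL hearts. These shares did not overlap for Acsl1, and those of Slc27a1 were separated by less than 1 percentage point.

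Within a library, ratios between forms were compared by an exact two-sided permutation test over the 6 libraries, whose smallest possible p is 0.1 with 3 against 3. Of 8 ratios, 5 did not overlap between groups, each with an exact permutation p = 0.1 and 0.16 after Benjamini-Hochberg adjustment over the 8. The ratio of Fabp4 to Fabp3 was 0.211, 0.187 and 0.343 in RUNX1 FB-KO hearts, against 0.502, 0.868 and 1.19 in CTL hearts, a log2 difference of -1.75, and of -2.02 without RUNX1 FB-KO replicate 3. The ratio of Fabp5 to Fabp3 was 0.0146, 0.0143 and 0.121 in RUNX1 FB-KO hearts, against 0.624, 0.208 and 0.374 in CTL hearts, a log2 difference of -3.64, and of -4.66 without RUNX1 FB-KO replicate 3. Both vessel and macrophage forms were thus scarcer beside the muscle form in each RUNX1 FB-KO heart, while their own levels overlapped between the groups. Each of the 5 ratios is taken over Fabp3 or Lpl, which were themselves higher in every RUNX1 FB-KO heart. Any gene that did not rise with them would also give a lower ratio, and how many genes do so was not counted.

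Lipase outweighed its partners by more in RUNX1 FB-KO hearts. There were 0.0636, 0.0763 and 0.137 Gpihbp1 transcripts per Lpl transcript in RUNX1 FB-KO hearts, against 0.341, 0.196 and 0.372 in CTL hearts (log2 difference -1.74, exact permutation p = 0.1, and -2.07 without RUNX1 FB-KO replicate 3). There were 0.00267, 0.00910 and 0.0485 Angptl4 transcripts per Lpl transcript in RUNX1 FB-KO hearts, against 0.0925, 0.0761 and 0.0997 in CTL hearts (log2 difference -3.07, exact permutation p = 0.1). That difference was -4.17 without RUNX1 FB-KO replicate 3 and -2.08 without RUNX1 FB-KO replicate 1. Slc27a1 was also lower beside Fabp3 in each RUNX1 FB-KO heart, by a log2 difference of -1.47, or -1.62 without replicate 3. The other 3 ratios overlapped. Acsl1 to Fabp3 differed by 0.10 on the log2 scale (exact permutation p = 0.6), Vldlr to Lpl by -0.36 (p = 0.3, exact permutation) and Fabp5 to Fabp4 by -1.88 (p = 0.3, exact permutation). Without RUNX1 FB-KO replicate 2 the first turned to -0.039, and without CTL replicate 1 the last was -1.15.

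Set against cell type markers, the muscle genes differed among themselves. Each gene's TPM was divided by the geometric mean TPM of a marker list in the same library, and 15 such ratios were compared by the exact two-sided permutation test, with 0.1 the smallest possible p. The ratio of Fabp3 to 12 cardiomyocyte markers was 1.63, 1.74 and 1.91 in RUNX1 FB-KO hearts, against 1.75, 1.66 and 1.59 in CTL hearts. Those values overlapped, with a log2 difference of 0.08 and p = 0.5 (exact permutation), while the CPM of Fabp3 did not. Lpl and Acsl1 likewise overlapped beside cardiomyocyte markers, with log2 differences of -0.05 (p = 0.8) and 0.17 (p = 0.4, both exact permutation). The difference for Lpl turned to 0.051 without CTL replicate 2 and to 0.036 without RUNX1 FB-KO replicate 2.

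Cd36, Slc27a1 and Vldlr, in contrast, were lower beside the mean of the cardiomyocyte markers in all RUNX1 FB-KO libraries. Any gene that rose less than the list as a whole gives a lower ratio. The markers themselves rose unequally, with log2 fold changes from 1.33 (Mybpc3) to 3.23 (Myh6). Cd36 (1.87) and Vldlr (2.24) lay within that range, so their direction depends on the markers chosen, and Slc27a1 (0.84) lay below it. The ratio of Cd36 was 0.382, 0.401 and 0.393 in RUNX1 FB-KO hearts, against 0.523, 0.607 and 0.539 in CTL hearts, a log2 difference of -0.50, also without RUNX1 FB-KO replicate 3 (-0.505). The ratio of Slc27a1 was 0.0304, 0.0444 and 0.0568 in RUNX1 FB-KO hearts, against 0.117, 0.0983 and 0.122 in CTL hearts, a log2 difference of -1.40, and of -1.61 without that library. For Vldlr the log2 difference was -0.41, the nearest libraries of the groups were only 0.006 apart, and it was -0.37 without RUNX1 FB-KO replicate 3 and -0.19 without CTL replicate 2. In CTL replicate 1, the nearest CTL heart, 23.2% of Vldlr TPM came from the transcript Vldlr-205, on 12.6 estimated reads. The separation of the groups for Vldlr thus rests on few reads. Angptl4 was lower in all RUNX1 FB-KO hearts, with a log2 difference of -3.12, which was -4.28 without RUNX1 FB-KO replicate 3 and -2.16 without RUNX1 FB-KO replicate 1. These and the 2 ratios that were higher in all RUNX1 FB-KO hearts, Cd36 to endothelial markers (log2 difference 1.74, or 2.31 without replicate 3) and Lpl to macrophage markers (3.22, or 4.14), had p = 0.1 by exact permutation and 0.25 after adjustment over the 15.

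The vessel and macrophage forms overlapped beside the markers of their own cells. Gpihbp1 to 12 endothelial markers was 3.13, 4.11 and 2.42 in RUNX1 FB-KO hearts, against 2.35, 1.95 and 2.63 in CTL hearts, a log2 difference of 0.45 (exact permutation p = 0.2). Fabp4 to the same markers differed by 0.57 (exact permutation p = 0.3). Fabp5 to 12 macrophage markers was 1.46, 2.04 and 2.17 in RUNX1 FB-KO hearts, against 3.45, 1.68 and 2.04 in CTL hearts, a log2 difference of -0.29 (exact permutation p = 0.5) that was 0.0090 without CTL replicate 1. Fabp4 to macrophage markers differed by 1.59 with overlap. A p of this size in so few hearts does not show that the ratios were alike.

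**Figure D3:**
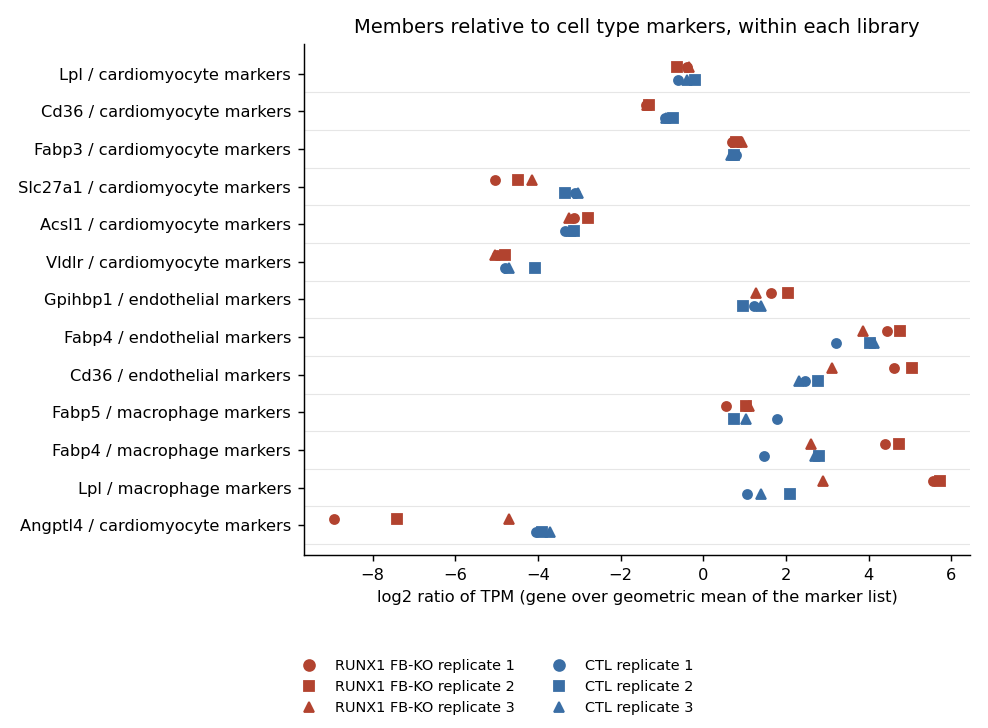
Log2 ratio of each gene's TPM to the geometric mean TPM of a cell type marker list (horizontal axis), a point for each library, with RUNX1 FB-KO above CTL in each row; 13 of the 15 ratios are drawn. Fabp3, Lpl and Acsl1 overlap beside cardiomyocyte markers, Cd36 and Slc27a1 are lower in RUNX1 FB-KO, and Lpl to macrophage markers is higher.

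With the cardiomyocyte marker score added as a covariate to the fit across all genes, the log2 fold change kept its sign for 2 of the 10 genes, Lpl at 0.10 and Fabp3 at 0.27. It turned for the other 8, among them Cd36 at -0.55, Acsl1 at -0.33, Vldlr at -0.50 and Slc27a1 at -0.86, with adjusted p of 0.929 to 0.978 (edgeR) over the 10. That score separated the groups itself, so the genotype and the amount of muscle RNA cannot be told apart in that fit.

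Transcript use was read as shares of a gene's reads that Salmon assigned among transcripts with shared sequence. Of 23 transcripts with 5% or more of their gene's reads on average, 5 did not overlap between the groups, of Acsl1, Vldlr and Gpihbp1. Acsl1-201 and Acsl1-203 divide the same reads, as do Vldlr-207 and Vldlr-208, so the 5 are not separate results. How many transcripts of the whole series did not overlap was not counted, and for gene levels the share was 39%. Acsl1-203, with the downstream first exon, took 29.3%, 23.6% and 26.3% of Acsl1 reads in RUNX1 FB-KO hearts, against 16.1%, 18.4% and 3.45% in CTL hearts. The lowest value, in CTL replicate 3, rested on 78.8 of its estimated reads, while the others rested on 449 or more. Acsl1-201, from the start with the CG-rich upstream window shown above, took most of the rest, and its last exon is 470 bases longer. These shares were not tested.

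Vldlr-207, which holds the 84-base exon, took 81.2%, 79.8% and 78.6% of Vldlr reads in RUNX1 FB-KO hearts, against 67.5%, 68.0% and 66.5% in CTL hearts. Within each group these values spread over less than 3 percentage points. As shares of TPM, which allow for transcript length, they were 63.8%, 58.0% and 60.3% in RUNX1 FB-KO and 36.1%, 44.0% and 47.1% in CTL. In CTL replicate 1, Vldlr-205 took 23.2% of TPM on 12.6 estimated reads. In CTL replicate 2, Vldlr-201, which the annotation marks for nonsense-mediated decay, took 20.4% of TPM. These lower the TPM shares of the other transcripts in those hearts, so the wider gap on this scale is not a measure of exon use. Vldlr-208, without the exon, took 16.1%, 15.5% and 17.2% of reads in RUNX1 FB-KO and 29.1%, 17.8% and 27.5% in CTL. Its shares of TPM overlapped, at 27.7%, 24.9% and 29.2% in RUNX1 FB-KO and 34.4%, 25.6% and 42.6% in CTL. Vldlr-207 also has a last exon 4369 bases longer than that of Vldlr-208, so the share does not count the optional exon alone.

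**Figure D4:**
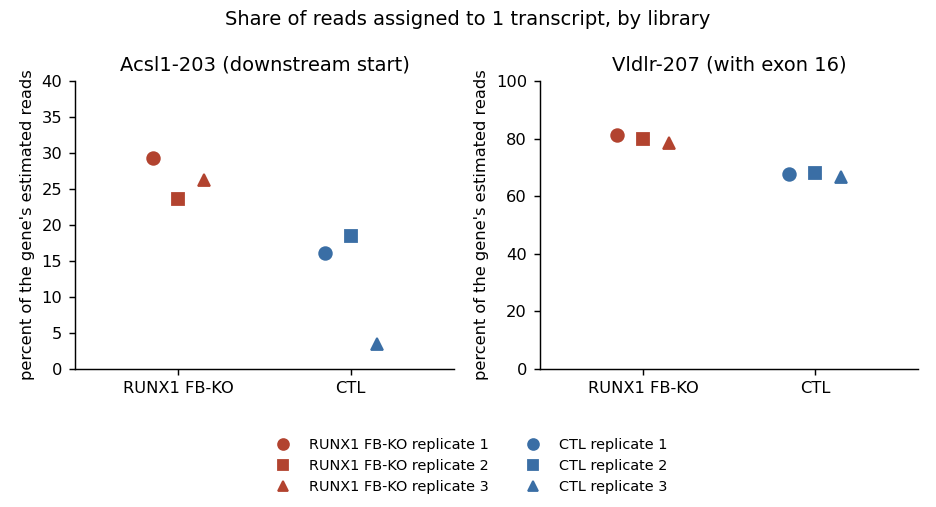
Share in percent of the gene's estimated reads assigned to Acsl1-203 (left, axis to 40%) and Vldlr-207 (right, axis to 100%), a point for each library with RUNX1 FB-KO left of CTL. Both transcripts take a larger share in each RUNX1 FB-KO heart than in any CTL heart.

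Gpihbp1-203 took 9.05%, 11.5% and 6.50% of Gpihbp1 reads in RUNX1 FB-KO hearts, against 5.75%, 6.07% and 5.17% in CTL hearts, on 58.6 to 110 estimated reads in RUNX1 FB-KO and 49.5 to 57.8 in CTL. The groups did not overlap, though RUNX1 FB-KO replicate 3 was close to CTL replicate 2. Slc27a1 reads were divided among 5 transcripts of 5% or more, and the shares of each overlapped between the groups. Fabp3 has a single transcript, and Lpl-201 held at least 99.75% of Lpl reads in each library. Cd36 reads were divided among 4 transcripts of 5% or more, led by Cd36-203 with 53.5% to 55.5% in RUNX1 FB-KO and 46.5% to 55.0% in CTL. Angptl4-202, which the annotation marks for nonsense-mediated decay, was assigned 60.1%, 62.9% and 66.9% of Angptl4 reads in RUNX1 FB-KO hearts, against 66.6%, 59.3% and 66.3% in CTL hearts, so the protein-coding Angptl4-201 was the lesser share in both groups.

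Promoter windows of 250 bases were found for 5 of the 10 genes, with 9 windows in all for Cd36, Fabp3, Slc27a1, Acsl1 and Vldlr; those of Lpl, Gpihbp1, Fabp4, Fabp5 and Angptl4 were not used here. On both strands, the RUNX motif TGTGGT, the MEF2 motif (CTA and TAG with 4 bases of any kind between them) and the nuclear receptor direct repeat (AGGNCA written 2 times with 1 base between, N being any base) had 0 matches in the 9 windows. Over 32851 mouse promoter windows of that length, 14%, 3.2% and 0.338% held these motifs in that order. An absent match says only that these letters are not in these windows.

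A list of 50 other genes of the pathway was read from the same fit. Of these, 36 were tested, 7 had 0 reads in every library, and 0 passed at an adjusted p under 0.05. Log2 fold changes were above 0 for 17 and below 0 for 19, with a median of -0.06 beside -0.06 for all genes tested. In all RUNX1 FB-KO libraries 10 were higher than in any CTL library and 9 were lower, where 20.2% and 18.8% of all genes were. Without RUNX1 FB-KO replicate 3, 10 of the 36 passed as higher and 11 as lower, beside 25.1% and 22.5% of all genes.

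The list was divided by role. Of 5 other lipoprotein receptors, 5 had a log2 fold change below 0 and 3 of them were lower in all RUNX1 FB-KO libraries, unlike Vldlr. Scarb1, the receptor for high-density lipoprotein, was at 42.2, 40.4 and 49.4 CPM in RUNX1 FB-KO hearts, against 53.0, 57.4 and 58.4 CPM in CTL hearts, and differed by -0.35 ± 0.14 (SE) on the log2 scale (adjusted p = 0.138, edgeR), and by -0.40 without RUNX1 FB-KO replicate 3 (adjusted p = 0.025). The difference between Vldlr and the other receptors was not tested.

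Of 5 other acyl-CoA synthetases tested, 4 were lower in all RUNX1 FB-KO libraries and 1 was higher. The higher gene was Acsl6, named here after its values were seen. Acsl3 was at 7.40, 5.31 and 10.4 CPM in RUNX1 FB-KO hearts, against 15.2, 14.955 and 13.3 CPM in CTL hearts (log2 fold change -0.90 ± 0.27 SE, adjusted p = 0.092, edgeR; -1.14 and 0.0045 without RUNX1 FB-KO replicate 3). Acsl4, which favours polyunsaturated acids, was at 26.7, 27.6 and 42.9 CPM in RUNX1 FB-KO hearts, against 50.02, 53.8 and 45.3 CPM in CTL hearts (log2 fold change -0.62 ± 0.21 SE, adjusted p = 0.115, edgeR; -0.83 and 0.0016 without that library). Both were below all CTL libraries in every RUNX1 FB-KO library, while Acsl1 was above them.

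Among 8 regulators, 4 were higher in all RUNX1 FB-KO libraries and 0 lower. Ppara, a nuclear receptor that turns on fatty acid oxidation genes, was at 37.8, 37.5 and 10.1 CPM in RUNX1 FB-KO hearts, against 3.60, 6.29 and 4.57 CPM in CTL hearts. Its log2 fold change was 2.56 ± 0.52 SE (adjusted p = 0.068, edgeR). Vegfb, a growth factor of the VEGF family, was at 219, 273 and 83.7 CPM in RUNX1 FB-KO hearts, against 44.0, 44.9 and 43.6 CPM in CTL hearts, a log2 fold change of 2.12 ± 0.41 SE. Tcf15, a transcription factor of heart capillary endothelium known from mice, was at 13.7, 13.9 and 6.28 CPM in RUNX1 FB-KO hearts, against 2.36, 3.17 and 3.83 CPM in CTL hearts, a log2 fold change of 1.85 ± 0.38 SE. The last 2 also had an adjusted p of 0.068 (edgeR). Without RUNX1 FB-KO replicate 3 the log2 fold changes were 3.004 for Ppara, 2.52 for Vegfb and 2.19 for Tcf15, with adjusted p of 0.00011, 7.2e-05 and 0.00063.

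Of the transport genes, Got2 and Cav3 were higher in all RUNX1 FB-KO libraries. Got2, a mitochondrial aminotransferase also described as a plasma membrane fatty acid binding protein, differed by 2.19 ± 0.46 (SE) on the log2 scale, and Cav3, the caveolin of muscle, by 1.36 ± 0.29 (adjusted p = 0.068 each, edgeR). Without RUNX1 FB-KO replicate 3 they differed by 2.61 (adjusted p = 7.6e-05) and 1.64 (adjusted p = 0.00046). Among lipase handling genes, Apoc1, an apolipoprotein of triglyceride-rich lipoproteins, differed by -2.21 ± 0.80 (SE) on the log2 scale, at 3.12 CPM or less in each library (adjusted p = 0.124, edgeR). It rested on 1, 16 and 9 reads in RUNX1 FB-KO libraries and 46, 70 and 58 in CTL libraries, and the difference was -3.26 without RUNX1 FB-KO replicate 2, -1.67 without RUNX1 FB-KO replicate 1 and -2.02 without RUNX1 FB-KO replicate 3 (adjusted p = 0.106).

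**Figure D5:**
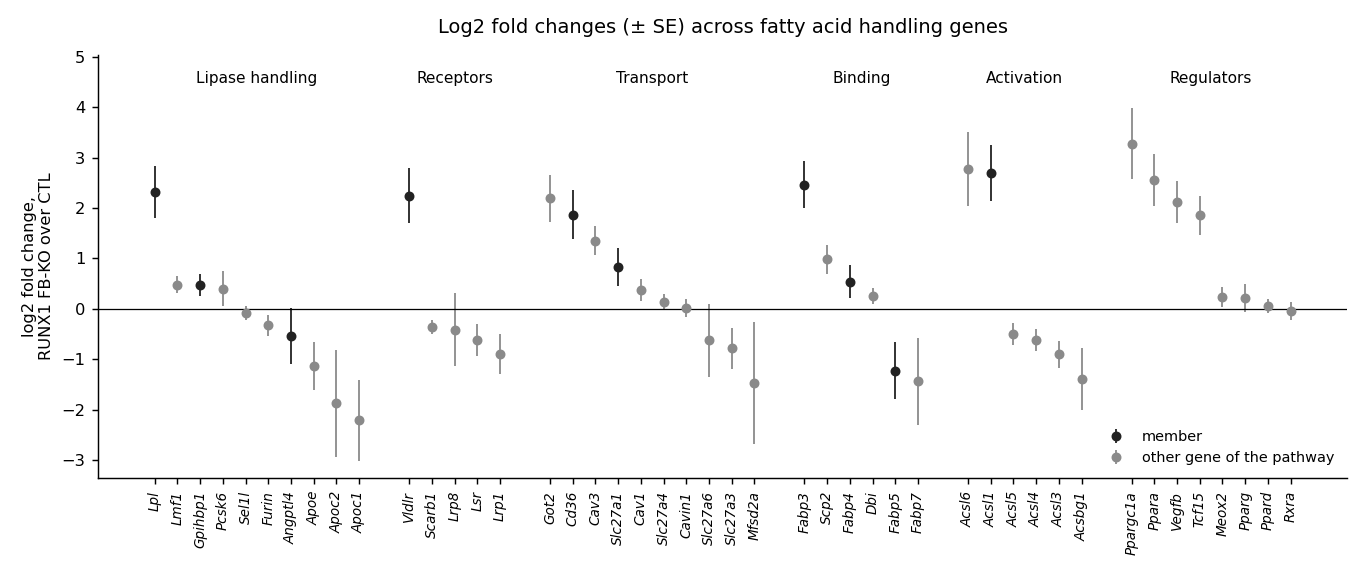
Log2 fold change of RUNX1 FB-KO over CTL with its SE (vertical axis) for the 10 members (black) and 35 other tested genes of the pathway (grey), grouped by role. Vldlr and Acsl1 lie above 0 while the other receptors and 4 of 5 other synthetases lie below it, and no gene passed at an adjusted p under 0.05.

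For a muscle, a vessel and a macrophage form, the 2 protein-coding genes with the most similar profile were sought by the Euclidean distance between log2 CPM profiles over the 6 libraries, each centred on its own mean. For Fabp3 these were Smyd1 (distance 0.138) and Itgb1bp2 (0.219). For Gpihbp1 they were Dmwd (0.144) and Dnaaf5 (0.146). For Fabp5 they were Kifc5b (0.215) and Cdt1 (0.216). Smyd1 was at 564, 687 and 223 CPM in RUNX1 FB-KO hearts, against 102, 101 and 79.4 CPM in CTL hearts, and Cdt1 was at 2.42, 3.51 and 8.78 CPM in RUNX1 FB-KO hearts, against 18.5, 6.12 and 7.81 CPM in CTL hearts.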

How the data were processed

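Poly-A RNA of ventricle was measured in 3 RUNX1 FB-KO and 3 CTL mice, and groups, replicate numbers and sex came from the labels. For each sample the authors deposited Salmon's estimated counts, TPM and effective length of each transcript, made with Salmon 1.5.2 on mm10 (GRCm38), per the submitters' processing notes, which also name DESeq2 1.44.0. The annotation release and the use of strand are not given in the sources used here. Reads shared by transcripts are divided between them, so transcript shares and genes with close copies are estimates.

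Of 116546 transcripts, 115977 matched GENCODE M21 by identifier. The other 569, with 0.0777% to 0.102% of reads, were dropped. Libraries held 16598561 to 19987279 estimated reads before those were dropped. The matched transcripts were summed to 35498 genes and rounded. After filterByExpr, 14237 genes were scaled by TMM and tested with edgeR 4.0.16 on genotype alone, adjusted by Benjamini-Hochberg over all of them. The SE is the absolute log2 fold change over the square root of F. Alternatives used DESeq2 1.42.0, limma 3.58.1 (voom), other scalings and filters, sex or the cardiomyocyte score as covariate, the replicate block, and each library left out. Deposited TPM were summed per gene for levels and ratios, which were tested by exact permutation (scipy 1.17.1). The fit was tested on simulated data. The labels number the replicates without stating how they were collected, so p-values measure only the spread between these samples.

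The 10 genes, the gene lists and the tests were chosen with earlier results of these data known. The genes named are the 10, Runx1, the 5 higher and 5 lower genes of the pathway list with the smallest p (1 of the 5 lower genes is not reported here and was not replaced), the most abundant marker of a list, and the 2 genes nearest in profile to Fabp3, Gpihbp1 and Fabp5; other names were added after their values were seen.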

Additional observations from a re-analysis of the deposited data

How the results depend on the processing

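At an adjusted p under 0.05, 0 genes and 0 of the 10 members passed, which moved to 889 genes and 4 members without a filter on low counts, to 3018 and 5 with DESeq2, and to 2311 and 5 at an adjusted p under 0.1. Leaving out a library gave 0 to 6947 genes and 0 to 9 members, and the higher numbers came from leaving out RUNX1 FB-KO replicate 3. Other scalings, filters, limma-voom and covariates gave 0 of both. Correlations of deviations between hearts with the same replicate number were -0.05, 0.11 and 0.08, so the numbers were not taken to pair the mice, and with the replicate block 0 genes and 0 members passed. Scaling by library size alone turned Gpihbp1 to -0.044, Dmwd to -0.052 and Dnaaf5 to -0.016 (log2), where the median of all genes was -0.52. The cardiomyocyte score as covariate turned Gpihbp1 to -0.21, Cd36 to -0.55, Fabp4 to -0.44, Fabp5 to 0.58, Slc27a1 to -0.86, Acsl1 to -0.33, Angptl4 to 0.85 and Vldlr to -0.50. It also turned Runx1 to 1.07, Vegfb to -0.088, Ppara to -0.18, Got2 to -0.19, Acsl4 to 0.12, Dmwd to -0.29, Dnaaf5 to -0.36, Kifc5b to 0.57 and Cdt1 to 0.67. The cause of these turns was not tested. No other alternative turned the fold change of a member, of Runx1, of a pathway gene named by its p or of a gene nearest in profile; no alternatives are given for other named genes. The ratios could not pass 0.05 with 3 hearts a group under any setting. Depth was lowest for Angptl4 among the 10 members, with 132 reads in RUNX1 FB-KO replicate 1.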
